A study of Mus musculus with 18 samples.

Results

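The imprinted growth genes around H19 are 10 genes, H19, Igf2, Dlk1, Meg3, Rian, Mirg, Peg3, Igf2r, Cdkn1c and Grb10, taken by their symbols from a table of 28442 genes in livers and liver tumors of Alb-R26Met mice. H19, a noncoding RNA, was listed at 0 in 5 of 6 livers and was above every liver in all 12 tumors. Grb10, an adaptor of growth factor receptors, also rose, in 10 of 12 tumors above the livers' common value of 1 in rounded TPM. Igf2, the growth factor gene beside H19, was at 0 or 1 in 7 of 12 tumors and high in 2, and it did not pass the test across all genes. Of the other 7 members, 5 were too low to be tested with all genes, and Igf2r and Peg3 did not pass.

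An imprinted gene is read from 1 parental copy, and the copy is chosen by a methylation mark set in the parent's germ line. Most members act on growth before birth, and several fall in the liver after birth. H19 and Igf2 share enhancers downstream of H19, and an imprinting control region between the genes directs these to H19 on the maternal copy and to Igf2 on the paternal copy. Dlk1, Meg3, Rian and Mirg lie in the Dlk1-Dio3 domain, where Dlk1 is read from the paternal copy and the noncoding RNAs Meg3, Rian and Mirg from the maternal copy. Paternally expressed growth genes such as Igf2, Dlk1 and Peg3 tend to favour growth or maternal resource use, and maternally expressed ones such as Igf2r, Cdkn1c and Grb10 tend to restrain it. The values count transcripts of both parental copies together, so they do not show which copy was read.

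All 18 samples came from Alb-R26Met mice, in which an Alb-driven Cre turns on a Met transgene in liver cells, so the livers used for comparison carry the transgene too. The 6 livers were from mice that had developed no tumors and were 52 to 71 weeks old (median 56.5), and the 12 advanced tumors were from mice 49 to 72 weeks old (median 65). Tumors 11 and 12 came from 1 mouse, which leaves 17 mice in all, and groups also differ in age. Sample names carry the tag E19 (2 livers, 7 tumors) or E20 (4 livers, 5 tumors), whose meaning the sources used here do not name. Values are TPM, a share of all transcripts corrected for gene length, rounded to whole numbers, so levels can be compared between genes, and a 0 stands for any TPM below 0.5.

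Hepatocyte markers were present in each group, with a summed deposited value of 42483 to 57704 in livers and 10909 to 83215 in tumors for 8 genes. Of these 8, Apoa1 was higher and Tat and Cyp2e1 were lower in tumors by limma. Tumor 2 stood apart, since Siglece alone took 82.9% of its total, against 17.9% to 53.4% in the other samples. Values were therefore divided by a factor per sample before testing, 0.192 for tumor 2 and 0.794 to 1.37 for the others. The marker sums were not divided, so tumor 2 enters them unscaled. In tumor 2 a deposited H19 value of 62 became 323 and a Grb10 value of 1 became 5.21. In bulk samples fewer cells of a type and less RNA per cell cannot be told apart.

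The sequences that H19 and Igf2 carry besides their own transcripts are mature miRNAs, which were not measured here and are shown because H19 was the member that differed most. H19 lies on chromosome 7 of GRCm38.p6 from 142575530 to 142578146, and Igf2 on the same chromosome from 142650768 to 142666816, a gap of 72621 bases. The miR-675 hairpin, from 142577064 to 142577147, lies in an exon of 3 of 7 annotated H19 transcripts and in an intron of 1. The miR-483 hairpin, from 142654924 to 142654996, lies in an intron of 7 of 9 annotated Igf2 transcripts and in an exon of none. The mature sequences of RefSeq, on the minus strand and written 5′ to 3′, have their seed (bases 2 to 8) in capitals.
mmu-miR-675-5p: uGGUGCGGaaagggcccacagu
mmu-miR-675-3p: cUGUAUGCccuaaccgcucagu
mmu-miR-483-5p: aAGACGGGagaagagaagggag
mmu-miR-483-3p: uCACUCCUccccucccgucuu
The 4 seeds differ from each other, and none occurs as the seed of another of the 1738 mature sequences in the RefSeq set.

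H19 (Entrez 14955), the noncoding RNA read from the maternal copy, was at 1 in liver 1 and at 0 in livers 2 to 6. In tumors 1 to 12 its deposited value was, in that order, 2, 62, 145, 12, 241, 2051, 130, 302, 78, 64, 4 and 69. Tumor 6 was far above the rest, tumors 1, 11 and 4 were low, and the groups did not overlap. The tumors had a median of 73.5 and a mean of 263 ± 571 (SD, n = 12), an SD above the mean, and the mean without tumor 6 was 101. Tumor 6 held 64.9% of the sum over tumors and was 6.79 times the next tumor, and the highest tumor was 1026 times the lowest. Tumors 11 and 12, from the same mouse, differed 17.2-fold. These ratios are of deposited values. After scaling, tumor 6 was at 1860 and tumor 2 was the next at 323, and tumors 11 and 12 were at 5.04 and 57.6.

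**Figure D1:**
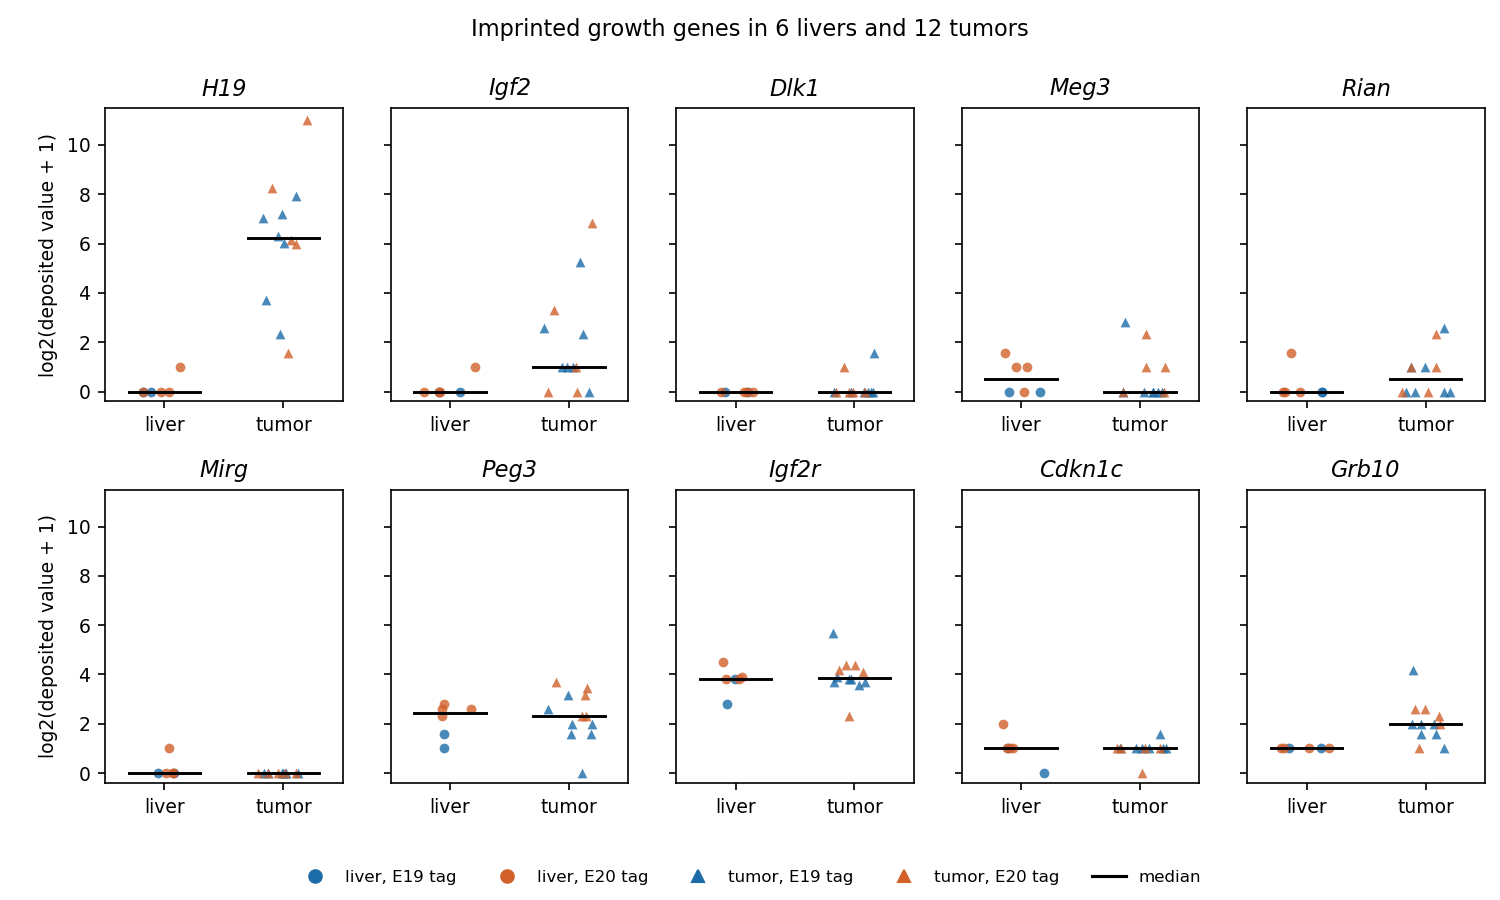
The 10 members in 6 livers (circles) and 12 tumors (triangles), as log2 of the deposited value plus 1 on the vertical axis, with the color giving the tag and a bar the median of each group. All 12 tumors lie above every liver for H19, while Mirg is at 0 in every tumor and Cdkn1c has a median of 1 in both groups.

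The log2 fold change of H19 was 6.06 (SE 0.97, limma, adjusted p = 1.48e-04) on the scale of log2(scaled value + 1), which understates changes of genes near 0. The exact permutation test over all 18564 splits gave p = 5.39e-05, the smallest it can give. Over all 11452 genes tested, 1151 were called higher in tumors, which is 10.1%, and 1036 lower, which is 9.05%. In deposited values every tumor lay above every liver in 52 genes, or 0.454%. Tumor 2, with a factor of 0.192, enters this share unscaled, and the share after scaling was not computed. H19 and Grb10 were the members called higher, 2 of the 5 tested, and 0 were called lower (limma, with 0 also at an unadjusted p under 0.05 and 0 by the exact permutation test). H19 and Igf2 passed the filter on low values (a scaled value of 1 in 6 samples) through the tumors alone, and Grb10 reached it in 11 tumors and 1 liver, so a count over the 5 tested members supports nothing further.

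Across the 18 fits that left out 1 sample, the log2 fold change of H19 stayed between 5.64 and 6.51 and its adjusted p (limma) was at most 6.31e-04. Within E19 samples it was 5.74 (exact permutation p = 0.0278, which is the lowest p of 36 splits), and within E20 samples it was 6.64 (exact permutation p = 0.0159, 126 splits). The difference between tags in that contrast was 0.89 and did not pass (limma interaction, adjusted p = 0.973).

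Igf2 (Entrez 16002), which encodes the growth factor that acts before birth through the Igf1 and insulin receptors, was listed at 1 for liver 2 and at 0 for the rest of the livers. In tumors 1 to 12 its deposited value was 0, 0, 0, 1, 1, 113, 4, 9, 5, 37, 1 and 1. Tumors 6 and 10 were high, tumors 7, 8 and 9 were between 4 and 9, and the other 7 tumors overlapped the livers in deposited values. The mean was 14.3 ± 32.8 (SD, n = 12) in tumors, with 65.7% of the sum in tumor 6, and 0.167 ± 0.408 (SD, n = 6) in livers. The log2 fold change of 1.80 (SE 0.78) did not pass (limma, adjusted p = 0.118; exact permutation p = 0.0504). With sample quality weights, a setting in which 20.2% of genes were called higher, it was 1.70 and passed (limma, adjusted p = 0.0453, the lowest over its alternatives, whose p-values reached 0.365). Igf2 reached a scaled value of 1 in 6 tumors, and without any 1 of them it failed the filter and was not tested.

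H19 was above Igf2 in all 12 tumors. In tumor 6, the highest for both, H19 was 18.2 times Igf2, while in tumor 10 it was 1.73 times Igf2. Tumors 2 and 3 had H19 at 62 and 145 with Igf2 at 0. A high H19 value thus occurred with Igf2 above 0 and with Igf2 listed at 0. In tumor 2, with a factor of 0.192, a listed 0 covers a wider range of scaled values.

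Dlk1 (Entrez 13386), a membrane protein of the Notch ligand family and a marker of fetal hepatoblasts, was at 0 in all 6 livers and at 0 in 10 tumors. It was at 2 in tumor 9 and at 1 in tumor 12. Meg3 (Entrez 17263) was at 1 in livers 2 and 3 and at 2 in liver 6, and among tumors it was at 1 in tumors 6 and 12, at 4 in tumor 8 and at 6 in tumor 10. Values of both genes were low and overlapped between the groups.

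Rian (Entrez 75745), a host of small nucleolar RNAs and miRNAs, reached 2 in liver 6 with the remaining livers at 0. It was above 0 in 6 tumors, at 5 in tumor 10, at 4 in tumor 8 and at 1 in tumors 1, 2, 3 and 9. Mirg (Entrez 100040724), the last noncoding RNA of the domain, was at 1 in liver 1 and at 0 in every other sample. In deposited values tumors 8 and 10 were the 2 highest for both Meg3 and Rian, while the other 10 tumors were at 0 or 1. After scaling, tumor 2 was the highest for Rian, at 5.21 against 4.36 in tumor 10 and 2.94 in tumor 8. The 4 genes lie on chromosome 12 in a span of 296974 bases, from the start of Dlk1 at 109452485 to the end of Mirg at 109749458.

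None of these 4 passed the filter on low values. Their differences in mean log2(scaled value + 1) between tumors and livers were 0.19 for Dlk1, -0.01 for Meg3, 0.58 for Rian and -0.13 for Mirg. By the exact permutation test p was 0.529, 0.964, 0.229 and 0.333 in that order, and with no filter limma gave adjusted p-values of 0.548, 0.988, 0.387 and 0.462. At values of 0 to 6 in rounded TPM, a small difference is not detectable.

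Peg3 (Entrez 18616, chromosome 7 from 6703892 to 6730462), a paternally expressed zinc finger gene, was at 5, 6, 4, 2, 1 and 5 in livers 1 to 6. In tumors 1 to 12 it was at 10, 4, 8, 5, 2, 8, 2, 4, 3, 0, 3 and 12. Tumors 1 and 12 were high, tumor 10 alone was at 0, and the groups overlapped. After scaling, tumor 2 was the highest, at 20.8. The log2 fold change was 0.38 (SE 0.45, limma, adjusted p = 0.628, 95% interval -0.56 to 1.32). It was 0.19 without liver 5 and also without tumor 2, 0.60 without tumor 10 and 0.18 without scaling, and did not pass in any of these (limma, adjusted p = 0.301 to 0.851).

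Igf2r (Entrez 16004, chromosome 17 from 12682406 to 12769706), the receptor that takes Igf2 up for breakdown, was at 22, 13, 13, 13, 6 and 14 in livers 1 to 6. In tumors 1 to 12 it was at 20, 4, 11, 12, 13, 16, 13, 20, 12, 50, 14 and 17. Tumor 10 was high, and the other 11 tumors were at or below the highest liver. After scaling, 3 tumors lay above every liver, tumors 2, 10 and 11 at 20.8, 43.6 and 17.6 against at most 16.2. The log2 fold change was 0.37 (SE 0.24, limma, adjusted p = 0.315, 95% interval -0.13 to 0.87). It was 0.24 without tumor 10, 0.23 without liver 5 and 0.185 without scaling, and did not pass in any of these (limma, adjusted p = 0.405 to 0.829). Airn, the antisense RNA of this locus, overlaps Igf2r in part. Whether the counting used strand is not given in the sources used here, so reads from the stretch they share cannot be told apart.

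Cdkn1c (Entrez 12577, chromosome 7 from 143458339 to 143461059), the cell cycle inhibitor p57, was at 3, 1, 1, 0, 1 and 1 in livers 1 to 6. In tumors it was at 2 in tumor 10, at 0 in tumor 2 and at 1 in the other 10. The groups overlapped, and the difference in mean log2 was -0.01 (exact permutation p = 0.948). It failed the filter on low values, and with no filter the adjusted p was 0.976 (limma).

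Grb10 (Entrez 14783, chromosome 11 from 11930499 to 12037428), an adaptor that binds and restrains the insulin and Igf1 receptors, was at 1 in each of the 6 livers. In tumors 1 to 12 it was at 5, 1, 2, 1, 3, 4, 3, 5, 3, 17, 2 and 3. Tumor 10 was high, tumors 2 and 4 were at the livers' value of 1, and the other 9 were between 2 and 5 in deposited values. Since each liver was at 1, the livers' scaled values (0.738 to 1.1) move only with the factor they were divided by. The call thus rests on steps of a few units in rounded TPM. The log2 fold change was 1.17 (SE 0.29, limma, adjusted p = 0.00635; exact permutation p = 0.00108). Without tumor 10 it was 0.99 and passed (limma, adjusted p = 0.00125), and over the 18 fits that left out 1 sample the adjusted p was at most 0.0169. Within E20 samples it was 1.33 (exact permutation p = 0.00794, which is the lowest p of 126 splits), and within E19 samples 0.98 (exact permutation p = 0.222, with 2 livers).

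By median value in tumors the members ranked H19 (73.5), Igf2r (13.5), Peg3 (4), Grb10 (3), Igf2 and Cdkn1c (both 1), Rian (0.5), and Dlk1, Meg3 and Mirg (0). Neighbours in this order overlapped in their ranges across tumors. In livers Igf2r had the highest median (13), followed by Peg3 (4.5), with Grb10 and Cdkn1c at 1.

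**Figure D2:**
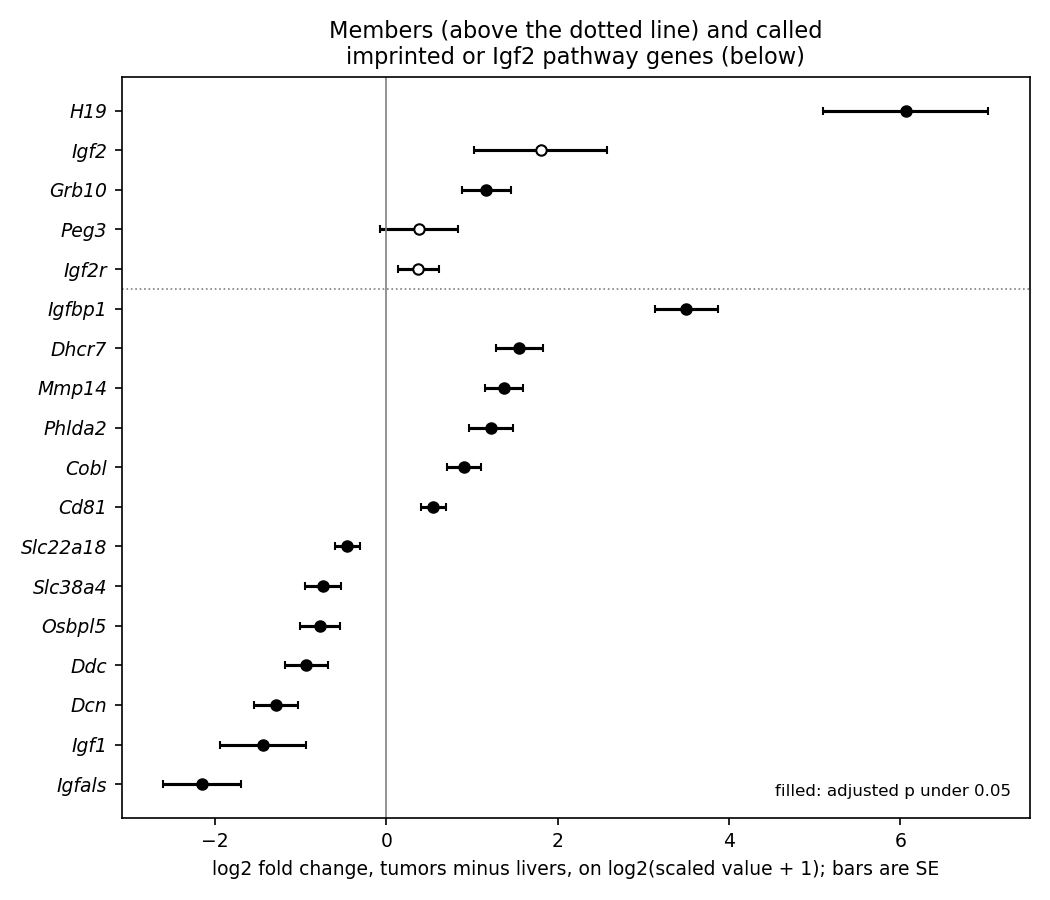
Log2 fold changes between 12 tumors and 6 livers on the log2(scaled value + 1) scale, with bars of 1 SE and filled points for an adjusted p under 0.05 (limma), for the 5 tested members above the dotted line and called genes of the imprinted and Igf2 pathway lists below it. H19 lies at 6.06, and the genes below the line run from -2.15 (Igfals) to 3.50 (Igfbp1).

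The promoters of Igf2r and Grb10 are printed because these were the members that varied together across tumors, as described next. Each window runs from 250 bases before to 50 after a RefSeq start on GRCm38.p6, on the minus strand and written 5′ to 3′, and capitals mark the GC box GGGCGG on either strand (the other strand reads CCGCCC), with overlapping matches run together. Igf2r has 1 start in the set, chr17:12769657-12769956, and Grb10 has 2, of which the one at chr11:12037371-12037670 is shown.
Igf2r: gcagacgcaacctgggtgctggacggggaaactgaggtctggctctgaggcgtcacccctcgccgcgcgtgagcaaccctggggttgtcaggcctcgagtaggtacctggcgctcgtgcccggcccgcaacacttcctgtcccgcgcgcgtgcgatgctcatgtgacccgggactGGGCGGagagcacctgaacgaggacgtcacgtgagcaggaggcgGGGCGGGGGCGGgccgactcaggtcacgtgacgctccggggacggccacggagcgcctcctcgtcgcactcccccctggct
Grb10: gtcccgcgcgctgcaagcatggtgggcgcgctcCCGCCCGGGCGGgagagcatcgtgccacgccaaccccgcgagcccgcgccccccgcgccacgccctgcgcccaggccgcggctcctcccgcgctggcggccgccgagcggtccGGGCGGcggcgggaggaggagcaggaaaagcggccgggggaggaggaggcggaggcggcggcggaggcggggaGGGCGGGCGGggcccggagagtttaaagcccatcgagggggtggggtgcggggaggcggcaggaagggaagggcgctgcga
The GC box matched 3 times in the Igf2r window and 5 times in this Grb10 window, and not in the window of the other Grb10 start. Of 32851 promoter windows of this length, 35.7% hold a match on either strand. The windows hold 34 and 45 CG pairs, where the median window holds 7, and 92.3% and 98.1% of windows hold fewer. Neither holds TATAAA or CCAAT on either strand, which 13.6% and 37.4% of windows do. CACGTG, which reads the same on both strands, occurs 2 times in the Igf2r window and is held by 7.15% of windows. A match is a description of the letters and does not show a bound factor.

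Co-variation across tumors was examined for the 7 members above 0 in at least 6 tumors, which form 21 pairs. Igf2r and Grb10 were the 1 pair that passed, with a Pearson's r of 0.895 (permutation p = 0.00089, adjusted p = 0.0187 over 21 pairs) and a Spearman's rho of 0.727 (permutation p = 0.00942, adjusted p = 0.198). Among 11257 genes ranked by Pearson's r, Igf2r was the closest to Grb10, and Grb10 was the 5th closest to Igf2r. Tumor 10 was the highest for both genes, and tumor 2 the second after scaling. Without tumor 10, r was 0.665 (permutation, adjusted p = 0.232), and without tumor 2 it was 0.889 (permutation, adjusted p = 0.126). Without both, the 2 tumors farthest from the median of Igf2r, r was 0.508 (permutation p = 0.131), so the relation rests on those tumors. Centred within tags, r was 0.898 (permutation within tags, adjusted p = 0.14).

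**Figure D3:**
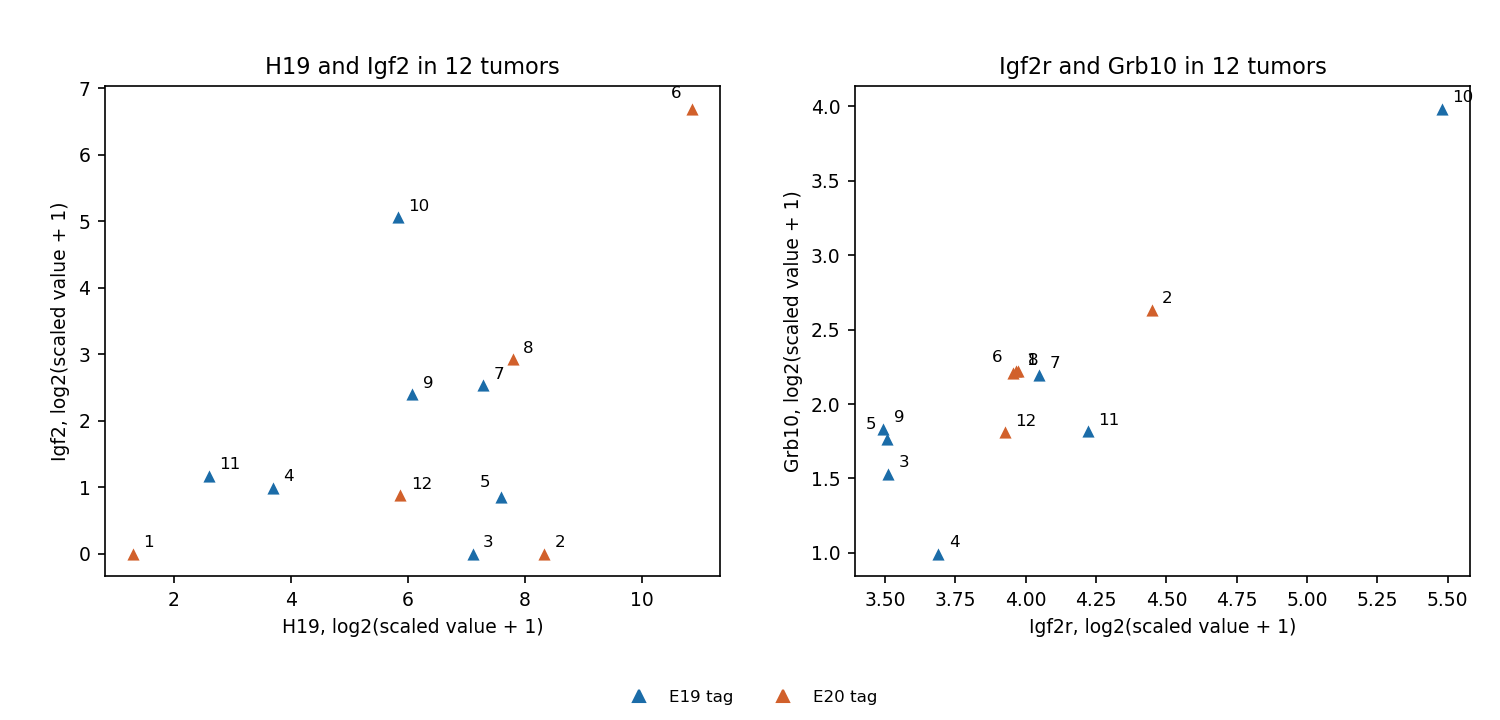
Each triangle is 1 of 12 tumors, with its number and its tag as color, plotted by log2(scaled value + 1) of H19 and Igf2 on the left and of Igf2r and Grb10 on the right. Tumor 6 is highest for H19 and Igf2, and tumor 10 is highest for Igf2r and Grb10.

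H19 and Igf2, neighbours on chromosome 7, had an r of 0.502 (permutation p = 0.094, adjusted p = 0.395) and a rho of 0.225 (permutation p = 0.48, adjusted p = 0.813). Without the 2 tumors farthest from the median of H19, tumors 1 and 6, r was -0.03 (permutation p = 0.925). It was 0.624 without tumor 2 (permutation p = 0.0409, adjusted p = 0.143) and 0.184 without tumor 6 (permutation, adjusted p = 0.707). By Pearson's r with H19, Igf2 ranked 256th of 11257 genes. The co-variation of the pair was therefore not shown in these 12 tumors.

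The other 19 pairs had r between -0.76 (Peg3 and Cdkn1c) and 0.684 (Rian and Grb10), both with a permutation adjusted p of 0.0615. Without tumors 2 and 10, these r were -0.142 and 0.281 (permutation p = 0.687 and 0.413). Cdkn1c was at 1 in 10 of 12 tumors, and in those its scaled values move only with the factor they were divided by. Its lowest and highest values were the 0 of tumor 2 and the 2 of tumor 10. Without tumor 6, Igf2 and Peg3 and also Rian and Grb10 passed beside Igf2r and Grb10, and when tumor 2 or tumor 10 was left out no pair did. Tumors 11 and 12 came from 1 mouse, and with their mean in place of both, 1 pair passed.

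**Figure D4:**
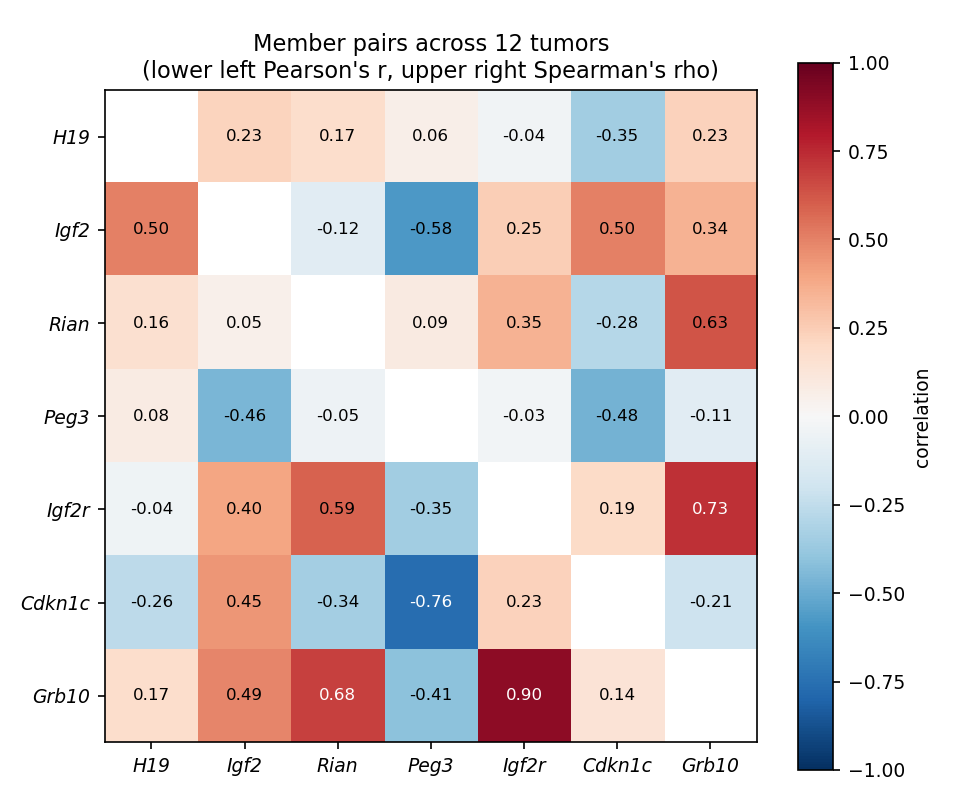
Correlations between 7 members across 12 tumors of log2(scaled value + 1), with Pearson's r in the lower left and Spearman's rho in the upper right and color from -1 (blue) to 1 (red). The darkest red cell is Igf2r with Grb10, at a Pearson's r of 0.895.

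For each of the 7 members the genes with the most similar pattern over the 12 tumors were taken among 10828 genes, by the lower of r and rho, as a description with no test. For H19 they were Ccn2 (r 0.856, rho 0.923), a secreted matrix protein that responds to mechanical signals, Celsr2 (r 0.843, rho 0.844), an adhesion receptor, Aebp1 (r 0.861, rho 0.839), a matrix protein, Inpp5f (r 0.811, rho 0.839), a phosphoinositide phosphatase with an imprinted isoform, and Ptgs1 (r 0.785, rho 0.762), a prostaglandin synthase. Celsr2 was at 0 in every liver and at 0 to 27 in tumors, and Aebp1 was at 1 to 3 in livers and at 3 to 32 in tumors. Ccn2 ran from 2 to 6 in livers and from 2 to 14 in tumors. All 5 kept an r of at least 0.774 with H19 without tumor 2.

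For Igf2 they were Ubap1 (r 0.887, rho 0.937), Postn (r 0.856, rho 0.873), a matrix protein of fibroblasts, and Cyp2c40 (r 0.801, rho 0.889), and for Grb10 Rock2 (r 0.869, rho 0.86), a kinase of the cytoskeleton, Sema3f (r 0.853, rho 0.923) and Adamtsl4 (r 0.86, rho 0.832). For Igf2r they were Itpr3 (r 0.946, rho 0.895), an intracellular calcium channel, Fosl2 (r 0.861, rho 0.839), a transcription factor of the AP-1 family, and Bcam (r 0.93, rho 0.804). For Peg3 they were Ccm2l, Adgrf5 and Hdac8, at r of 0.94, 0.943 and 0.947. Rian was followed most closely by Kdm2b, Taf6l and Mfsd11 (r 0.83, 0.861 and 0.858), and Cdkn1c by Csrnp2, Grcc10 and Sertad1 (r 0.897, 0.938 and 0.948). Without tumor 2 these r were 0.741, 0.794 and 0.803 for Rian and 0.867, 0.783 and 0.834 for Cdkn1c. Those of Igf2, Peg3, Igf2r and Grb10 were then at least 0.785. In the tumors where Cdkn1c was at 1, its scaled values move only with the factor, as given above. No gene stood in 2 of these sets.

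Peg3 was the 1 member called for tag of the 5 tested (20.0%). In livers it was at 1 and 2 with E19 and at 4 to 6 with E20, and in tumors at 0 to 8 with E19 and at 4 to 12 with E20. In a fit with both group and tag, E20 exceeded E19 by 1.26 on the log2 scale for Peg3 (SE 0.35, limma, adjusted p = 0.0154), where 20.8% of all genes were called for tag. The tag differences of H19 (0.81), Igf2 (0.24), Igf2r (0.17) and Grb10 (0.09) did not pass (limma, adjusted p = 0.566 to 0.853). The difference between tumors and livers in Peg3 was 0.70 in that fit and did not pass (limma, adjusted p = 0.202). Meg3, which failed the filter and was not tested for tag, had a median of 0 with E19 and 1 with E20 in both groups.

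Of 33 other imprinted genes tested, 6 were called for tag (18.2%, against 20.8% of all genes), among them the noncoding RNAs Kcnq1ot1 and Airn, named after their values were seen. Kcnq1ot1, the antisense RNA of the domain that holds Cdkn1c, was at 1 in both E19 livers and at 3 to 10 in E20 livers, and at 0 or 1 in E19 tumors and at 1 to 9 in E20 tumors. Its tag difference was 1.78 (limma, adjusted p = 1.62e-05), and that of Airn was 1.77 (limma, adjusted p = 0.0146). Malat1 and Neat1, nuclear noncoding RNAs chosen after their values were seen, differed by 2.68 and 2.55 (limma, adjusted p = 8.4e-06 and 9.32e-06). What part the tag had in the values of the nuclear RNAs among the members was not tested further.

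**Figure D5:**
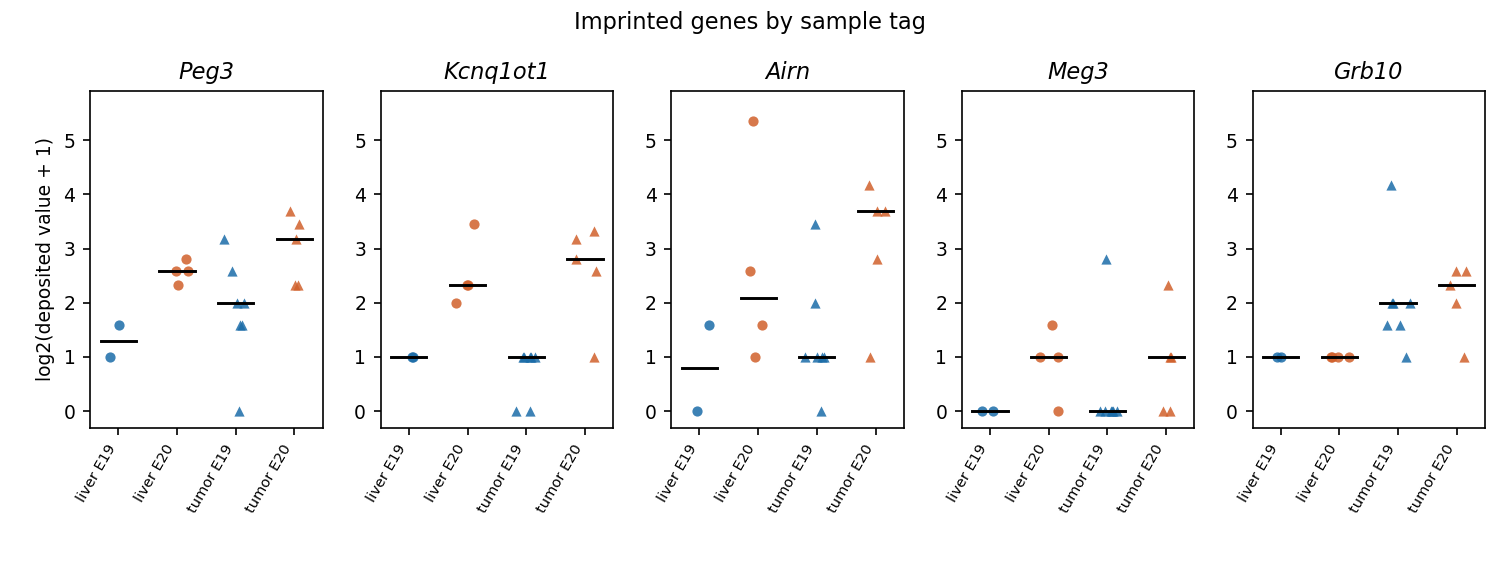
Deposited values as log2(value + 1) of 5 imprinted genes in livers (circles) and tumors (triangles) by tag, with bars at medians. Peg3, Kcnq1ot1, Airn and Meg3 have higher medians with E20 than with E19 in both groups, and Grb10 has the same value of 1 in livers of both tags.

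The other imprinted genes of a fixed list were compared in the same fit. Of 65 listed genes 62 are in the table, 21 are at 0 in every sample and 33 were tested, of which 4 were higher (12.1%) and 5 lower in tumors (15.2%), near the 10.1% and 9.05% of all genes. Their median log2 fold change was -0.11. Many of them are imprinted in the placenta or brain only.

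In the domains of H19 and Kcnq1, Dhcr7, the last enzyme of cholesterol synthesis, was at a median of 35.5 in livers and 105 in tumors and rose by 1.55 on the log2 scale (SE 0.28, limma, adjusted p = 4.43e-04). Phlda2, a maternally expressed growth restrainer of the placenta, was at 1 in 1 liver and 0 in the others and had a tumor median of 2 (1.23, limma, adjusted p = 0.00188). No liver reached a scaled value of 1 for Phlda2, so it passed the filter on low values through the tumors alone. Its call and its place in the count of called genes therefore support nothing further. Cd81, a tetraspanin, rose by 0.54 (limma, adjusted p = 0.012). Osbpl5 (-0.78) and Slc22a18 (-0.46) were lower (limma, adjusted p = 0.0233 and 0.0304), and both calls were lost when any of livers 2, 4, 5 and 6 or tumor 11 was left out, and that of Osbpl5 also without liver 3.

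Beside Grb10, its neighbours moved in opposite directions. Cobl, an actin nucleator, was higher in tumors by 0.90 (limma, adjusted p = 0.00279), and Ddc, the decarboxylase that makes dopamine and serotonin, was lower (-0.93, limma, adjusted p = 0.0104). Cd81, Cobl, Slc22a18 and Slc38a4 were not called without scaling. Dcn, a matrix proteoglycan, had a median of 47 in livers and 18 in tumors (-1.29, limma, adjusted p = 0.00124), and Slc38a4, an amino acid transporter, 304 and 156 (-0.74, limma, adjusted p = 0.0149). In the Dlk1-Dio3 domain Rtl1, Dio3 and Begain, and in the Peg3 domain Usp29, Zim1, Zfp264 and Zim3, are listed at 0 in every sample.

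Of 18 genes that bind Igf2 or pass on or limit its signal, 15 were tested, and 2 were higher (13.3%) and 2 lower in tumors (13.3%), near the 10.1% and 9.05% of all genes. Igfbp1, a binding protein of Igf1 and Igf2, was at 16 to 102 in livers (median 38) and at 109 to 1357 in tumors (median 441), so the groups did not overlap, and its log2 fold change was 3.50 (SE 0.37, limma, adjusted p = 7.77e-07). Mmp14, a membrane protease, rose by 1.38 (limma, adjusted p = 1.68e-04). Igfals, which holds Igfs in a serum complex, was lower (-2.15, limma, adjusted p = 0.00205), as was Igf1 (-1.44, limma, adjusted p = 0.0482). Igf1r was at 1 to 2 in livers and 0 to 3 in tumors and did not pass (limma, adjusted p = 0.388).

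Genes that read or keep imprints were listed too, and of 9, 7 were tested. Of these, 3 were higher (42.9%) and 1 lower (14.3%), against 10.1% and 9.05% of all genes. Those called, named after their values were seen, were Zfp57, a zinc finger protein that guards imprints (1.80, limma, adjusted p = 1.28e-05), Uhrf1 (1.92, limma, adjusted p = 1.89e-04) and Dnmt1 (0.60, limma, adjusted p = 0.0351), which keep methylation at replication, all higher, and Zfp445 (-0.93, limma, adjusted p = 0.0183), lower. Zfp57 was at 0 in all 6 livers and at 1 to 5 in all 12 tumors. Ctcf, which binds the H19 control region, was at a median of 6 in livers and 6.5 in tumors (limma, adjusted p = 0.772). In a list of 8 fetal liver genes and their repressors, Afp (4.89), Gpc3 (4.11) and Lpl (2.89) were higher (limma, adjusted p = 2.31e-08, 2.46e-05 and 1.49e-04) and none was lower, with the repressors Zhx2 and Zbtb20 at -0.06 and -0.70 (limma, adjusted p = 0.829 and 0.169). These 3 were 37.5% of the list, against 10.1% of all genes. Zfp57 and Gpc3, at 0 in every liver, and Uhrf1, at 0 or 1 in livers, passed the filter on low values through the tumors alone. These counts therefore support nothing further.

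Markers of other cells moved between the groups as well, where 10.1% of all genes were called higher and 9.05% lower. Their sums are of deposited values, not divided by the factor per sample, so tumor 2 enters them unscaled. Over 10 stellate cell and fibroblast markers, 3 were higher (the collagens Col1a1, Col1a2 and Col3a1) and 3 lower (Pdgfra, Des and Lrat), with sums of 32 to 62 in livers and 11 to 198 in tumors. Of 7 endothelial markers 2 were higher (28.6%), Pecam1 and Cdh5, with sums of 55 to 90 and 33 to 116. Of 6 biliary and progenitor markers 1 was higher, Spp1, with sums of 10 to 26 and 63 to 726, and Krt19, Krt7 and Epcam were at most 2 in every sample. Of 6 macrophage markers 1 was lower, Clec4f, with sums of 32 to 89 and 4 to 63, and the 6 lymphocyte markers summed to 0 to 4 and 0 to 12. All 5 tested cell cycle genes of 6 were higher, with sums of 0 to 3 in livers and 3 to 41 in tumors. Mki67 and Aurka were at 0 in every liver, so they passed the filter on low values through the tumors alone. Top2a, Cdk1 and Birc5 were at 0 or 1 in livers, so this count supports nothing further. The 4 mast cell markers Cpa3, Mcpt4, Tpsb2 and Cma1 summed to 55 in tumor 10, the tumor highest for Igf2r, Grb10 and Meg3, and to 2 in tumor 6 (Mcpt4 and Tpsb2 at 1 each), and were at 0 in the other 16 samples. The part of these cells in the members' values was not tested, beyond the values of Igf2r and Grb10 without tumor 10 given above.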

How the data were processed

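Bulk RNA-seq values of 6 livers and 12 tumors were used, and samples were grouped from the labels. The authors sequenced RNA, aligned to GRCm38 (per the labels, also mm10), quantified genes and deposited a score in whole numbers. It was treated as TPM rounded by the authors, since 900 of 918 unrounded TPM of the study equal it after rounding and totals ran from 835144 to 907513. Per the labels, 40000000 reads were sequenced per sample, but rounded TPM keep no read numbers per gene, so no counting intervals are given. Values were not counts, so no count model was used.

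Members were matched by symbol, and 8 lines with an extra separator were read accordingly. Values were divided by an unweighted trimmed mean of M values (30% of M and 5% of A values trimmed), and genes that reached a scaled value of 1 in 6 or more samples were fitted on log2(value + 1). The fit used limma 3.58.1 (R 4.3.3) with an intensity trend for the prior variance and Benjamini-Hochberg adjustment over all genes tested (threshold 0.05). For each member an exact two-sided permutation test was run, unadjusted. Correlations used 100000 permutations, two-sided, adjusted over 21 pairs. The limma fit and the correlations were tested on simulated data, the latter on continuous values with fewer permutations, and the exact permutation test was not. Positions are from RefSeq on GRCm38.p6 by Entrez identifier, and transcripts from GENCODE vM21. Promoter windows were found for 8 members.

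Members and lists were chosen with earlier results of these data known. Named genes are the members, the 3 genes (5 for H19) most alike over tumors among genes above 0 in at least 6 tumors, leaving aside Gm-numbered and Rik symbols, and called genes of the imprinted and Igf2 lists (at most 20). Malat1, Neat1, Siglece and genes of other lists were chosen after their values were seen. Alternatives covered scaling, filter, pseudocount, tag, age, a block by number, each tag alone, sample quality weights, the mean of tumors 11 and 12 and each sample left out. Chosen after seeing the data were leaving out tumors 2 and 10 together, the 12 samples of the block with no block, and the exact test within tags.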

Additional observations from a re-analysis of the deposited data

Results flagged for a closer look

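Of 46 named genes, 14 had 1 liver far from the other 5, by the gap to the nearest liver over the range of the 6, where chance gives about 2.3 (1 in 20 groups). The ratio was 1.0 for H19, Mirg and Phlda2, each at 1 in liver 1 and 0 elsewhere, for Igf2, at 1 in liver 2, and for Rian, at 2 in liver 6. It was also 1.0 for Postn, at 2 in liver 4, Ccm2l, at 1 in liver 1, and Itpr3, at 0 in liver 5, each with the other livers all 1 unit away. For Cdkn1c (3 in liver 1) and Cobl (12 in liver 1) it was 0.667. Dhcr7 had a ratio of 0.774 (132 in liver 1, at most 43 in the others), Igfbp1 of 0.674 (102 in liver 1, at most 44) and Taf6l of 0.889 (10 in liver 1, at most 2). For Ubap1, at 25 in liver 2, it was 0.7. Liver 1 was the liver named in 9 of the 14, and in whole numbers near 0 a step of 1 is enough for a ratio of 1.0.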

How the results depend on the processing

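Of 480 combinations of a result and an alternative, the direction and the side of the threshold, or the count, held in 428. H19 kept its call in all that gave it a value, and 0 members were called lower in any. With E19 samples alone 1 member was called higher (H19), and with E20 samples alone 0 of 2 tested, where H19 was not tested for want of 6 samples with a value. Other imprinted genes higher in tumors fell from 4 to 2 without scaling, in the replicate block, in the same 12 samples with no block and in E19 samples, and to 1 in E20 samples. Those lower fell from 5 to 2 in the replicate block and in E19 samples, to 1 in the 12 samples with no block, to 0 in E20 samples, and ran from 3 to 5 when 1 sample was left out. The count of correlated pairs, 1, was 0 with Spearman's rho, centred within tag and without tumors 2 and 10, and ran from 0 to 3 with 1 tumor left out. H19 and Igf2 turned to -0.035 without the 2 tumors farthest from the median. Meg3, near 0 throughout, turned to 0.377 in E19 samples and ran from -0.202 to 0.155 with 1 sample left out. Cdkn1c turned to 0.13 and 0.01 with pseudocounts of 0.1 and 0.5 and to 0.53 in E19 samples, and ran from -0.196 to 0.141 with 1 sample left out. The causes were not tested, apart from fewer samples and genes tested within a tag.

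With replicate number as a block over livers and tumors 1 to 6, the log2 fold change of Grb10 was 0.96 (limma, adjusted p = 0.0513, against 0.0299 with no block in the same samples), that of Peg3 0.91 (0.0182 against 0.186) and that of H19 6.35 (0.00225). The numbers do not pair the samples, since the livers came from other mice than the tumors. Same-numbered samples deviated from their group means with correlations from -0.104 to 0.424. For every liver the best correlated of tumors 1 to 6 carried the liver's tag, and for livers 2, 4 and 5 it was the tumor of the same number. Without scaling, the median log2 fold change of all genes was -0.18 in place of -0.06. Values of 0 to 6 in rounded TPM limit what can be seen for Dlk1, Meg3, Rian, Mirg and Cdkn1c. The rounding also bears on Grb10, at 1 in every liver and at 1 to 5 in every tumor but tumor 10.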
